A study of Mus musculus with 6 samples.

Results

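Rprm, the gene for the cell cycle inhibitor Reprimo, was one of the genes with a far higher value in mouse thyroid tumor cells that carried mutant Braf beside nuclear YAP than in cells with nuclear YAP alone. Here Rprm is described together with p53 itself (Trp53) and 8 further genes that p53 is known to induce, to ask whether these followed Rprm. All 10 genes, chosen by symbol, are among the 35027 genes of the expression table. Rprm was chosen for its difference between the same 6 libraries, so its values are a description and carry no test, and the comparison that can be tested is that of the 9 other members. None of these 9 passed the threshold after adjustment for all genes tested, and 3 of them, Phlda3, Gdf15 and Perp, had higher values in BrafYAP cells at an unadjusted p under 0.05, as had 10.7% of all genes tested on the deposited values.

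RNA-seq was performed on about 20000 sorted cells per library. YAP and BrafYAP mice shared the RIK allele, which makes the rtTA activator and the red reporter Kate, and a tetO transgene from which a mutant YAP that stays in the nucleus is made. BrafYAP mice in addition expressed mutant Braf from its endogenous gene. By the labels, expression of the transgene was specific to the thyroid. Dox chow, which turns the YAP transgene on, was given from 4 weeks of age, and Kate-positive cells were sorted from digested tumors. There were 3 YAP libraries (replicates 1, 2 and 3), each a pool of 3 tumors by the labels, and 3 BrafYAP libraries (replicates 1, 2 and 6), each from 1 tumor, so that pooling and genotype cannot be told apart. All groups carried the YAP transgene, and cells without it were not part of these comparisons.

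The libraries held an estimated 26.2 to 36.9 M reads. Kate-positive cells were called thyroid cells by the labels. The 8 thyroid markers summed to 192 to 414 in YAP and 117 to 380 in BrafYAP libraries, in TPM recomputed per exonic length. On scaled reads 3 of these 8 had a difference above 0 and 5 below, and the groups overlapped for each. Of the 8, Tshr was at 0 reads in BrafYAP replicates 1 and 2. In TPM per exonic length the 4 epithelial markers summed to 4556 to 16058 in YAP and 7164 to 16729 in BrafYAP. The 8 immune markers summed to 11268 to 39439 in YAP and 3066 to 12237 in BrafYAP. Of these, 3 of 8 were lower in every BrafYAP library, as were 16.4% of all genes tested on deposited values. Only 3 of the 8 reached a deposited mean of 1. In bulk RNA of sorted cells, fewer cells of a type and less RNA per cell cannot be told apart. No immune marker was at 0 in all libraries. The 6 fibroblast markers summed to 127 to 241 in YAP and 135 to 275 in BrafYAP, endothelial markers to at most 31.7 and muscle markers to at most 18.8. Parathyroid markers reached 637 and neuroendocrine markers 337 in BrafYAP replicate 6, against at most 107 and 93.6 in the other libraries. Without overlap, 1 of 4 epithelial, 2 of 6 fibroblast and 1 of 4 muscle markers were higher in BrafYAP, where 11.8% of all genes were. Lower without overlap were 1 of 6 fibroblast and 1 of 6 neuroendocrine markers. The part of these other cells in the results was not tested.

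p53 is a transcription factor that is kept scarce by the ubiquitin ligase Mdm2 and accumulates after DNA damage, oncogene activity and other stress. It then induces genes that stop the cell cycle, repair DNA, change metabolism or kill the cell, and it induces Mdm2, which closes a feedback loop. Its activity is set largely by protein stability and modification, so the transcripts of its targets, rather than its own, are the usual RNA readout. In thyroid cancer, loss of p53 is known mainly from poorly differentiated and anaplastic tumors, whereas differentiated tumors driven by mutant BRAF usually keep the gene. By the paper, BrafYAP mice developed poorly differentiated or anaplastic tumors and YAP mice poorly differentiated ones. It does not state the histology of the tumors that were sequenced. Reprimo is a small glycosylated protein that p53 can induce, and its known action is to hold cyclin B and CDK1 in check, so that cells stop before mitosis.

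Values are given as deposited by the authors, in TPM, which scale reads by gene length and library total, with 0.0001 added. These TPM were divided by the genomic span of a gene, introns included, so that genes with long introns have low values. Where a gene fell below the minimum mean of 1, it is given in scaled reads, which are the reads of a library with the length division undone and the authors' scaling between libraries kept. Differences are log2 fold changes, BrafYAP minus YAP, of the value + 1, with the standard error (SE) from limma. The limma fit tested 7319 genes on deposited values, of which 0.246% (18 genes) passed an adjusted p of 0.05, and 16834 genes on scaled reads, of which 0% passed. The median of all genes was -0.06 on the deposited scale and -0.12 on the scaled-read scale, the latter moving to 0.01 after median-ratio rescaling.

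Rprm lies on chromosome 2 (54084093 to 54085552, minus strand, mm10) and its exonic length equals its span of 1460 bases, so it has no intron. Its value was 0.187, 1.92 and 0.726 in YAP replicates 1, 2 and 3, and 20.3, 20.0 and 29.7 in BrafYAP replicates 1, 2 and 6. The lowest BrafYAP library was thus above the highest YAP library, and replicate 2 was the highest of the YAP libraries. These values rested on 8, 69 and 31 estimated reads in YAP and 805, 1120 and 1473 in BrafYAP. The means were 0.944 ± 0.886 (SD, n = 3) and 23.3 ± 5.55 (SD, n = 3), a ratio of 24.7. On the log2 scale the difference was 3.72 with 1 added to the deposited value and 5.09 with 1 added to scaled reads, because the added 1 weighs on low values. Leaving out 1 library at a time gave 3.42 to 4.06 on the deposited scale.

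The 250 bases upstream of the Rprm start are shown because the gene differed so widely between the groups. They are from RefSeq (GRCm38.p6, chr2:54085553-54085802, minus strand), and capitals mark CpG dinucleotides, the sites at which DNA methylation can silence this promoter. There are 13 of them, most in the part nearest the start.
Rprm: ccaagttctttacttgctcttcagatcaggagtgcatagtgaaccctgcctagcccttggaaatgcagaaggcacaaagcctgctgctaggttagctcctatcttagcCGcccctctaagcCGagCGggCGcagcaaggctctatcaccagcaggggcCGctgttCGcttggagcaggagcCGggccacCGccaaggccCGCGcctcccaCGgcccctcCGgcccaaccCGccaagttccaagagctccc

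RefSeq promoter windows, 250 bases before to 50 after a start, were found for 7 of the 10 members, and not for Trp53inp1, Zmat3 and Perp. They were searched on both strands for the decamer to which p53 binds in pairs, 3 purines, C, A or T, A or T, G and 3 pyrimidines. A match was present in 8.36% of all 32851 promoter windows. It was found in the windows of Mdm2, Ccng1 and Trp53, which are shown with the match in capitals, and not in those of Rprm, Phlda3, Gdf15 and Eda2r.
Mdm2, from 186 bases before the start, chr10:117710925-117710954, minus strand: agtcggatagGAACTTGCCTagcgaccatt
Ccng1, from 185 bases before the start, chr11:40755452-40755481, minus strand: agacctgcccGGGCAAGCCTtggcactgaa
Trp53, from 75 bases before the start, chr11:69580274-69580303, plus strand: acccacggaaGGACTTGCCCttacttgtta
The hexamer GGAATG, the motif of the TEAD factors that YAP acts through, was matched in the windows of Phlda3, Gdf15 and Eda2r and in 14.7% of all windows. The AP-1 motif TGANTCA (7.81% of windows) and the ETS motif CCGGAAGT (3.89% of windows) were matched in no member's window. The motifs do not overlap one another in these windows, and a match is a run of letters, not a bound site. Sequence outside the windows was not searched, so a window without a match does not show that the gene lacks a site.

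**Figure D1:**
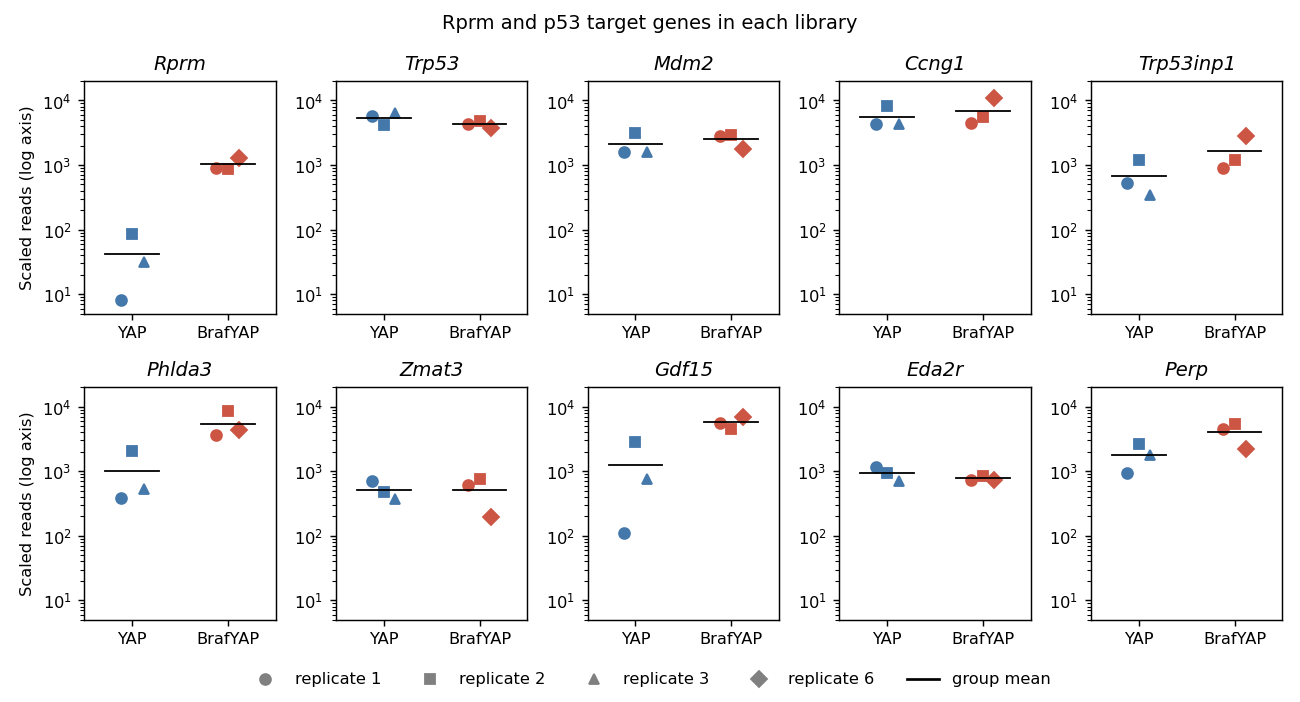
Scaled reads (log axis) of the 10 members in each library, with YAP in blue, BrafYAP in red, the replicate number given by the symbol and a bar at the group mean. Rprm, Phlda3 and Gdf15 have all BrafYAP libraries above all YAP libraries, and the groups overlap for the other 7 genes.

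The question was then whether p53 and its feedback regulators differed with Rprm. Trp53 (chromosome 11, 69580359 to 69591873) had deposited values of 16.3, 11.9 and 18.6 in YAP and 12.4, 13.7 and 10.8 in BrafYAP. The groups overlapped, with a difference of -0.31 (SE 0.26, 95% interval -0.91 to 0.30, limma adjusted p = 0.526). Mdm2 (chromosome 10, 117688875 to 117710758), the ubiquitin ligase of the feedback loop, had values of 2.39, 4.70 and 2.45 in YAP and 4.33, 4.44 and 2.68 in BrafYAP. YAP replicate 2 was the highest of the 6, and the difference was 0.23 (SE 0.29, 95% interval -0.47 to 0.92, limma adjusted p = 0.689). Ccng1 (chromosome 11, 40748552 to 40755311) encodes cyclin G1, which brings a phosphatase to Mdm2. Its values were 21.0, 40.1 and 21.3 in YAP and 22.1, 27.2 and 53.3 in BrafYAP. BrafYAP replicate 6 was the highest, and the difference of 0.27 (SE 0.42, 95% interval -0.72 to 1.26, limma adjusted p = 0.741) became -0.09 without it. Trp53inp1 (chromosome 4, 11156431 to 11174379) encodes a stress protein that promotes p53 activity and autophagy. Its values were 0.960, 2.19 and 0.636 in YAP and 1.69, 2.23 and 5.20 in BrafYAP. Again BrafYAP replicate 6 stood highest, and YAP replicate 2 lay among the BrafYAP libraries. The difference was 0.80 (SE 0.39, 95% interval -0.12 to 1.72, limma adjusted p = 0.30). Without BrafYAP replicate 6 it was 0.44.

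Among the effectors, Phlda3 and Gdf15 had every BrafYAP library above every YAP library. Phlda3 (chromosome 1, 135766119 to 135769136) encodes a small protein that competes with AKT for membrane lipids. Its deposited values were 4.28, 22.6 and 5.87 in YAP and 39.5, 92.9 and 48.1 in BrafYAP, a 5.52-fold difference of the means. The log2 difference was 2.59 (SE 0.61, 95% interval 1.15 to 4.03, unadjusted p = 0.00380, limma adjusted p = 0.0953). Gdf15 (chromosome 8, 70629393 to 70632456) encodes a secreted cytokine of the TGF-beta superfamily that p53 and the integrated stress response both induce. Its values were 1.20, 31.1 and 8.12 in YAP and 60.6, 49.6 and 74.7 in BrafYAP, a 4.57-fold difference of the means. The YAP libraries spread widely, from 1.20 to 31.1, and the log2 difference was 2.84 (SE 0.88, 95% interval 0.76 to 4.91, unadjusted p = 0.0143, limma adjusted p = 0.147). Both genes had YAP replicate 2 as the highest and replicate 1 as the lowest of the YAP libraries, as Rprm did. Without YAP replicate 2 the differences were 3.25 for Phlda3 and 3.79 for Gdf15, each with a limma adjusted p of 0.0361. In that fit 465 of all 7276 genes passed the threshold. Without YAP replicate 1 they were 2.17 (limma adjusted p = 0.258) and 1.85 (limma adjusted p = 0.268). Over all alternatives the adjusted p ranged from 0.00913 to 0.269 for Phlda3 and from 0.0129 to 0.425 for Gdf15.

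Perp (chromosome 10, 18845020 to 18857073) encodes a membrane protein of desmosomes that can promote apoptosis. Its deposited values were 2.6, 7.20 and 4.85 in YAP and 12.4, 15.1 and 6.01 in BrafYAP. BrafYAP replicate 6 lay below YAP replicate 2, so the groups overlapped. The difference was 1.04 (SE 0.43, 95% interval 0.04 to 2.05, unadjusted p = 0.0439, limma adjusted p = 0.237). The remaining members are long genes that were compared on scaled reads. Zmat3 (chromosome 3, 32334792 to 32366014), which encodes an RNA-binding zinc finger protein, had 718, 470 and 374 scaled reads in YAP and 605, 751 and 195 in BrafYAP. The lowest and the highest library were both BrafYAP, and the difference was -0.17 (SE 0.56, 95% interval -1.47 to 1.14, limma adjusted p = 0.886). Eda2r (chromosome X, 97333840 to 97377216), which encodes a receptor of the TNF receptor family for ectodysplasin A2, had 1146, 933 and 700 scaled reads in YAP and 729, 854 and 731 in BrafYAP. The groups overlapped, with a difference of -0.24 (SE 0.30, 95% interval -0.93 to 0.46, limma adjusted p = 0.671). No member overlaps another annotated gene in GENCODE M21.

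Of the 9 members other than Rprm, all of which could be tested, 0 passed the threshold with limma, 3 had an unadjusted p under 0.05 and all 3 were higher in BrafYAP. On deposited values 10.7% of all genes were higher and 9.17% lower at that unadjusted p. The groups did not overlap for 2 of the 9, both higher, against 11.8% of all genes higher and 16.4% lower. The median difference of the 9 was 0.27, beside -0.06 for all genes on deposited values and -0.12 on scaled reads. When YAP replicate 2 was left out, 2 passed, as did 465 of all 7276 genes tested on deposited values. In that setting 6 of the 9 (Mdm2, Ccng1, Trp53inp1, Phlda3, Gdf15 and Perp) were higher without overlap, against 22.4% of all genes. Trp53 was lower without overlap, against 27.2%. Without YAP replicate 1 or BrafYAP replicate 2, only Phlda3 and Gdf15 were higher without overlap, against 13.2% and 14.6% of all genes. Without BrafYAP replicate 6 Perp joined them (19.6% of all genes higher), and without BrafYAP replicate 1 Trp53inp1 did (13.3%). Without YAP replicate 3 they were joined by none, and Eda2r was lower without overlap, against 20.6% of all genes.

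**Figure D2:**
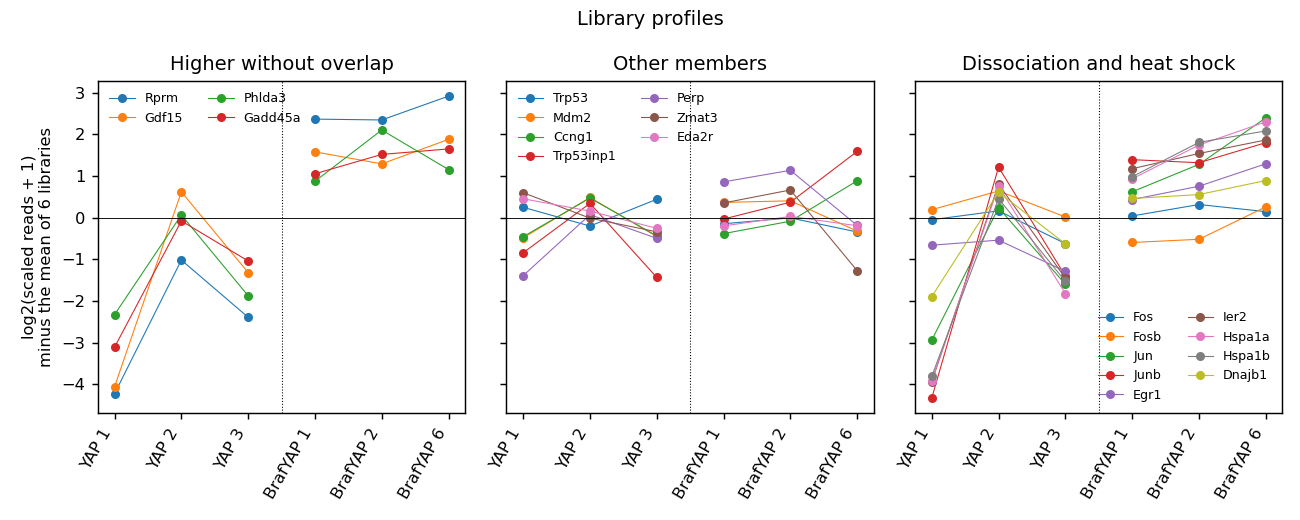
Values per library of the 3 members with higher values in BrafYAP without overlap and Gadd45a (left), the other 7 members (middle) and 9 dissociation and heat shock genes (right), as log2(scaled reads + 1) minus the gene's mean over 6 libraries. Lines join the points of 1 gene, the dotted line parts the genotypes, and the libraries have no order within a genotype. YAP replicate 1 is lowest and YAP replicate 2 highest among the YAP libraries for Rprm, Gdf15, Phlda3 and Gadd45a, and for 6 of the 9 genes on the right.

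The YAP libraries themselves differed in these genes. Of the 8 members tested on deposited values, 6 (Rprm, Mdm2, Ccng1, Phlda3, Gdf15 and Perp) had YAP replicate 2 as the highest and replicate 1 as the lowest of the YAP libraries, as had 31.5% of all genes tested. Of 9 immediate-early and heat shock genes that tissue digestion is known to induce, 6 had that same order. These 9 genes summed to a deposited value of 675 to 1992 in YAP and 2247 to 3821 in BrafYAP. Of the 9, 6 (Jun, Junb, Egr1, Ier2, Hspa1a and Hspa1b) were higher in every BrafYAP library, as were 11.8% of all genes tested. Hspa1a, an inducible heat shock protein gene, had deposited values of 10.6, 270.4 and 45.3 in YAP and 306, 537 and 791 in BrafYAP. It had the same highest and lowest YAP libraries as Gdf15 and Phlda3. Whether digestion or genotype set the values of these 9 genes was not tested. Nor was a part of either in the values of Rprm, Gdf15 and Phlda3. The 7 genes of the integrated stress response, the other known inducer of Gdf15, overlapped between the groups in all cases. On deposited values 4 of them had a difference above 0 and 3 below, from -1.10 to 1.15 with a median of 0.24. Asns alone had an unadjusted p under 0.05 and was lower in BrafYAP, as were 9.17% of all genes tested.

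To place Rprm among the other members, levels were compared per exonic length, as TPM recomputed from the estimated reads. In YAP cells Rprm had the lowest level of the 10, at 2.43 ± 2.20 (SD, n = 3), and its range overlapped that of Zmat3 next above it, at 3.92 ± 1.29 (SD, n = 3). Ccng1 was highest in YAP, at 137 ± 49.1 (SD, n = 3), followed by Trp53, Perp, Gdf15, Phlda3 and Mdm2, each overlapping the next. Mdm2 and Eda2r below it did not overlap. In BrafYAP cells Rprm stood sixth, at 62.9 ± 14.3 (SD, n = 3), below all values of Trp53 (94.6 ± 12.4) and above all values of Mdm2 (44.5 ± 11.9). The order there was led by Phlda3 at 316 ± 156 (SD, n = 3) and Gdf15 at 275 ± 52.4 (SD, n = 3), then Perp and Ccng1, each overlapping the next.

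**Figure D3:**
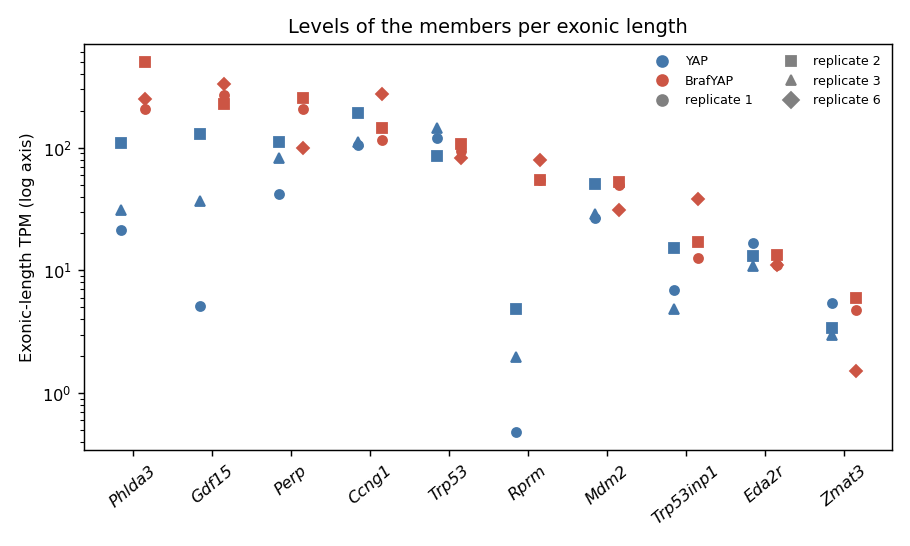
Level of each member per exonic length in recomputed TPM (log axis), 1 symbol per library, with YAP in blue and BrafYAP in red, ordered by the BrafYAP mean. Rprm is the lowest of the 10 genes in YAP (mean 2.43) and the sixth in BrafYAP (mean 62.9).

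The genes with a profile most like that of Rprm over the 6 libraries were sought by the root-mean-square difference of log2(value + 1), each gene centred on its own mean, among the 7318 others with a mean of at least 1. They were Hist1h2ah (0.311), Hist1h2al (0.515), Sdc1 (0.519), Dusp28 (0.544) and Ephb6 (0.582). Hist1h2ah and Hist1h2al, a histone H2A gene and an annotated H2A pseudogene, have near-identical copies with which they can share reads, so their values are uncertain. Sdc1 encodes the cell surface proteoglycan syndecan-1, and its deposited values were 0.929, 6.38 and 1.77 in YAP and 19.9, 25.5 and 83.1 in BrafYAP. Ephb6, an Eph receptor that lacks kinase activity, had values of 0.645, 2.51 and 0.578 in YAP and 10.8, 14.7 and 12.6 in BrafYAP. Dusp28, an atypical dual-specificity phosphatase gene, had values of 0.539, 1.92 and 0.705 in YAP and 7.25, 18.0 and 23.0 in BrafYAP. It overlaps an annotated gene on the opposite strand. Of the members, Phlda3 ranked 31 and Gdf15 ranked 55 in this likeness, followed by Perp (758), Trp53inp1 (897), Ccng1 (1909), Mdm2 (2183) and Trp53 (5315). The ranking uses the contrast by which Rprm was chosen and is a description.

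Other p53 targets were taken from lists of cell cycle arrest (9 genes), cell death (11) and repair or metabolism (11). Of these 31 genes 30 could be tested, 0 passed the threshold with limma, and 5 had an unadjusted p under 0.05, 4 of them higher (Gadd45a, Ei24, Siva1 and Ercc5) and 1 lower (Fas). On scaled reads 9.68% of all genes were higher and 10.5% lower at that p. Their median difference was 0.09. Gadd45a (chromosome 6, 67035096 to 67037457), which encodes a stress sensor that restrains CDK1 as Reprimo does, had deposited values of 1.40, 11.5 and 5.92 in YAP and 25.3, 34.9 and 38.3 in BrafYAP. Every BrafYAP library was higher, and the difference was 2.49 (SE 0.58, 95% interval 1.12 to 3.87, limma adjusted p = 0.0953), or 3.03 without YAP replicate 2 (adjusted p = 0.0361) and 1.84 without YAP replicate 1 (adjusted p = 0.194), against 0.00877 to 0.282 over all alternatives. The gene overlaps an antisense transcript whose reads cannot be told apart here. The fit without YAP replicate 2, in which Gadd45a passed, had 465 of all 7276 genes past the threshold. Gadd45a also had YAP replicate 2 highest and replicate 1 lowest among the YAP libraries.

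Cdkn1a (chromosome 17, 29090976 to 29100727), which encodes p21 and is the best known arrest target of p53, had overlapping groups. Its deposited values were 44.6, 87.2 and 65.7 in YAP and 79.8, 92.9 and 45.9 in BrafYAP. The lowest BrafYAP library was close to the lowest YAP library, and the difference was 0.13 (SE 0.38, 95% interval -0.77 to 1.04, limma adjusted p = 0.869), ranging from -0.12 to 0.43 when 1 library was left out. Ppm1d, the phosphatase that p53 induces to end its own response, differed by -0.30 on scaled reads (SE 0.69, limma adjusted p = 0.831). Among the death genes Bax, which permeabilises mitochondria, differed by 0.59 (SE 0.34, limma adjusted p = 0.381) and Bbc3, which encodes Puma, by 0.13 (SE 0.25, limma adjusted p = 0.803). Ei24, a gene of an endoplasmic reticulum protein, was higher in every BrafYAP library, with deposited values of 0.556 to 1.38 in YAP and 1.93 to 2.88 in BrafYAP (0.77, SE 0.23, limma adjusted p = 0.141). Siva1, a proapoptotic gene, was 4.46 to 8.18 in YAP and 9.06 to 13.9 in BrafYAP (0.73, SE 0.29, limma adjusted p = 0.221). The death receptor gene Fas lay lower in every BrafYAP library, with 482 to 1157 scaled reads in YAP and 365 to 442 in BrafYAP (-0.92, SE 0.38, limma adjusted p = 0.233). The groups of the 30 tested targets did not overlap for 3 higher genes and 1 lower gene on scaled reads, where 11.6% of all genes were higher and 17.1% lower without overlap.

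**Figure D4:**
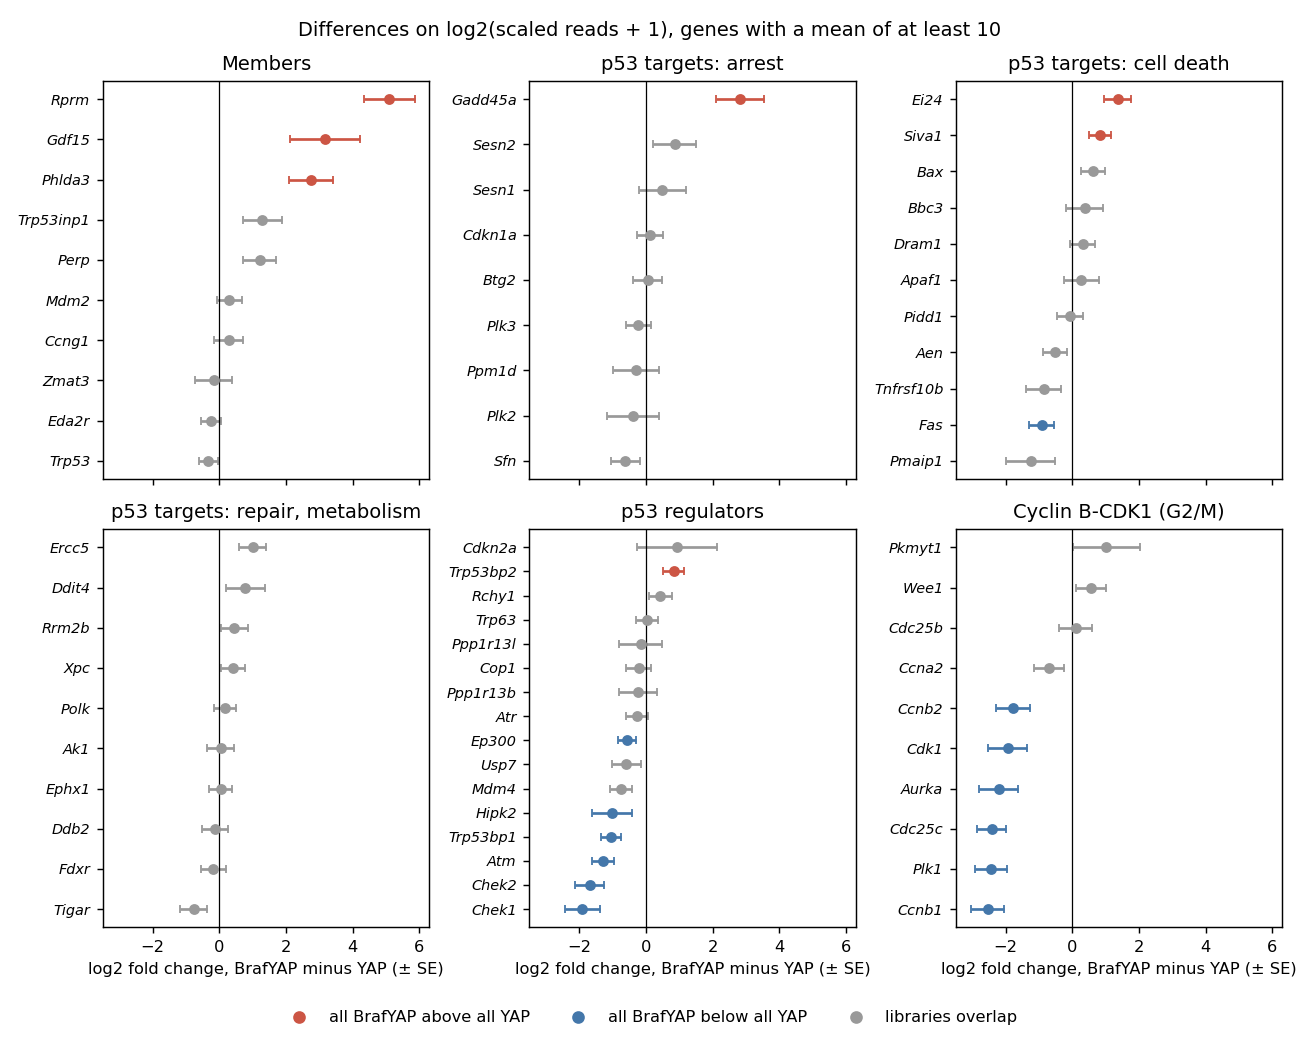
Log2 fold changes (BrafYAP minus YAP, on log2(scaled reads + 1), bars ± SE from limma) of the members and of 5 lists of p53 targets, p53 regulators and G2/M genes, in genes with a mean of at least 10 scaled reads. Red and blue mark genes whose BrafYAP libraries all lie above or below all YAP libraries. Rprm (5.09), Gdf15 and Phlda3 stand to the right among the members and Gadd45a among the arrest genes. Of the 10 G2/M genes 7 lie to the left of 0, 6 of them in blue.

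Since the Reprimo protein acts on cyclin B and CDK1, the genes of these proteins were examined with the regulators of p53. Whether Rprm has a part in the levels of these transcripts, or the share of cycling cells does, was not tested. Of 27 genes listed, 26 could be tested and 0 passed with limma, while 11 had an unadjusted p under 0.05, 10 of them lower in BrafYAP and 1 (Trp53bp2) higher, where 10.5% of all genes were lower and 9.68% higher on scaled reads. Their median difference was -0.63. Of the 10 G2/M genes, 6 were lower in every BrafYAP library on scaled reads, against 17.1% of all genes. Cdk1, the mitotic kinase, had deposited values of 4.07, 2.51 and 3.32 in YAP and 1.42, 1.32 and 0.315 in BrafYAP, a difference of -1.13 (SE 0.30, limma adjusted p = 0.111). Ccnb1, its cyclin B1 partner, had values of 6.11, 4.23 and 3.82 in YAP and 1.68, 0.558 and 0.526 in BrafYAP, a difference of -1.60 (SE 0.29, limma adjusted p = 0.0814). Every YAP library was thus above every BrafYAP library for both. Plk1, a kinase of mitotic entry, differed by -1.34 (SE 0.25, limma adjusted p = 0.0814) and Aurka, which activates it, by -0.91 (SE 0.20, limma adjusted p = 0.0911). On scaled reads, where the added 1 weighs less, the differences were -1.95 for Cdk1, -2.54 for Ccnb1, -2.44 for Plk1 and -2.21 for Aurka. Cdc25c, the phosphatase that switches CDK1 on, differed by -2.42 on scaled reads (SE 0.44, limma adjusted p = 0.0818). Among these, Ccnb1 passed without YAP replicate 2 (adjusted p = 0.0475, against a highest of 0.247 when 1 library was left out). So did 465 of all 7276 genes in that fit. The order of the YAP libraries seen for Rprm, with replicate 2 highest and replicate 1 lowest, held for Plk1 and not for Cdk1, Ccnb1, Aurka or Cdc25c. Over the whole G2/M list it held for 3 of the 7 genes tested on deposited values, beside 31.5% of all genes. On scaled reads it held for 5 of 10, beside 4344 of all 16834 genes.

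Of 16 p53 regulators tested on scaled reads, 6 were lower and 1 was higher in BrafYAP without overlap. Among all genes 17.1% were lower and 11.6% higher in this way. The regulators named below as lower had the largest differences of those without overlap. Of the kinases that signal DNA damage to p53, Atm, Chek1 and Chek2 had fewer scaled reads in every BrafYAP library. Atm, which responds to double-strand breaks, had 269, 221 and 307 scaled reads in YAP and 90.8, 127 and 110.1 in BrafYAP (-1.27, SE 0.33, limma adjusted p = 0.116). Chek1 differed by -1.90 (SE 0.53, limma adjusted p = 0.131) and Chek2 by -1.69 (SE 0.42, limma adjusted p = 0.110). Trp53bp1, the gene of the repair protein 53BP1, differed by -1.05 (SE 0.29, limma adjusted p = 0.128). Hipk2, a kinase that phosphorylates p53, was also lower in every BrafYAP library, with a difference of -1.02 (SE 0.61, limma adjusted p = 0.380), which was -0.28 once BrafYAP replicate 6 was left out. Trp53bp1 and Hipk2 overlap genes on the opposite strand, and reads of overlapping genes cannot be told apart. The same limit holds for Cdkn1a, Ei24, Plk1, Cdc25c, Mdm4, Hist1h2ah and Hist1h2al, with an annotated gene on the opposite strand. It also holds for Bax and Fas, with one on the same strand. Mdm4, which inhibits p53 with Mdm2, differed by -0.75 (SE 0.33, limma adjusted p = 0.256). Cdkn2a, whose Arf product frees p53 from Mdm2, had 23.6, 48.9 and 38.1 scaled reads in YAP and 102, 333 and 8.88 in BrafYAP. The BrafYAP libraries thus stood on both sides of the YAP libraries (0.94, SE 1.20, limma adjusted p = 0.680), and the table does not separate the Arf transcript from that of p16. Rprml, the paralog of Rprm, had 0 estimated reads in each YAP library and 3, 3 and 9 in the BrafYAP libraries. It was below the minimum and was not tested.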

How the data were processed

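RNA was amplified by SMART-Seq (12 cycles), and libraries (8 PCR cycles) were sequenced as 50-nt pairs. Per the labels, the authors used bcl2fastq 2.2, STAR 2.6.1d on mm10 and Partek, and by the paper's methods its E/M model with Ensembl 95. The authors deposited 1 table of TPM with 0.0001 added, whose columns each sum to 181218. To find the length they divided by, values under 200 reads were multiplied by the genomic span or the exonic length of GENCODE M21 genes. The products were whole multiples of 1 step per library, within 0.05, for 71.7 to 76.0% of values by genomic span, against 22.3 to 24.9% by exonic length. Estimated reads are (value - 0.0001) × span / step, for 34645 genes at 1 locus. Scaled reads multiply these by the library's step over its geometric mean. Exonic TPM divide estimated reads by exonic length. PCR duplicates carry no molecular identifier, so depth covers counting error only, and no strand was stated for the counting. The labels and the paper's methods give the same start of dox, and a sentence of its results has it later. For each replicate its methods give 1 tumor per mouse, where the labels give pools for the YAP libraries. The labels were followed. 1 item of the mouse model is not reported here.

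BrafYAP was compared with YAP over the 6 libraries by limma 3.58.1 in R 4.3.3 (lmFit, eBayes with a trend), two-sided. Values entered as log2(value + 1), genes needed a mean of 1 or more, and p-values were adjusted by the Benjamini-Hochberg method over all genes tested, at a threshold of 0.05. Genes below that mean were taken from the same fit on scaled reads with a mean of at least 10. No count model was applied to TPM, and the fit was tested on simulated data. The simulation gave every gene the same independent spread and no differences between libraries of a group, so it does not show how the fit behaves on these libraries. The p-values measure the spread between libraries, and the labels give no batch. The members and all gene lists were chosen with earlier results of these data known. The genes named are the 10 members, Cdkn1a, Bax, Bbc3, Ppm1d, Mdm4, Cdkn2a, Cdk1, Ccnb1 and Rprml, at most 5 genes of each list whose groups did not overlap on scaled reads, and the 5 genes most like Rprm, passing over unnamed predicted genes. Ercc5, Trp53bp2, Asns, the marker genes and the immediate-early and heat shock genes named were picked after their values were seen. Alternatives were another pseudocount, minimum mean or none, median-ratio or quantile normalization, array weights, a replicate block, no trend in eBayes, undoing the length division, exonic length, and leaving out each library. Coordinates are from GENCODE M21 (mm10), promoters from RefSeq (GRCm38.p6).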

Additional observations from a re-analysis of the deposited data

How the results depend on the processing

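The number of genes past the threshold depended on nearly every setting. It was 18 on deposited values (6 higher, 12 lower), 1 with a pseudocount of 0.1, 3 with a minimum mean of 10, 0 with no filter, 1 with median-ratio rescaling, 1 without a trend and 0 with the length division undone. The count was 79 after quantile normalization (41 higher, 38 lower), 62 with exonic length and 1393 with array weights, and 0 to 465 when 1 library was left out, the highest without YAP replicate 2. On scaled reads the 0 genes (3404 at an unadjusted p under 0.05) became 62 with quantile normalization, 20 without a trend, 1884 with array weights, and 0 to 142 when 1 library was left out, the highest without BrafYAP replicate 6. Of the 9 members, 0 became 3 with array weights (Phlda3, Gdf15 and Perp) and 0 to 2 when 1 library was left out. Of the p53 targets, 0 became 3 with array weights (Gadd45a, Ei24 and Siva1) and 0 to 1 when 1 library was left out. Of the regulator and G2/M genes, 0 became 1 with quantile normalization (Plk1), 10 with array weights and 0 to 1 when 1 library was left out. Array weights were estimated gene by gene. The cause of these shifts was not tested. The Rprm difference was 4.88 with a pseudocount of 0.1, 5.09 with the length division undone and 4.41 with exonic length.

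Some genes that had not passed the test changed direction. With array weights Zmat3 was 0.51 and Bbc3 -0.086. When 1 library was left out, Ccng1 ranged from -0.092 to 0.57, Zmat3 from -0.54 to 0.43 (0.09 without YAP replicate 1), Cdkn1a from -0.12 to 0.43 (-0.07 without BrafYAP replicate 2), Bbc3 from -0.12 to 0.21 in the 3 such fits where it met the minimum mean (-0.24 to 0.73 in all 6 on scaled reads), Ppm1d from -0.90 to 0.28 (0.06 without BrafYAP replicate 1) and Cdkn2a from -0.19 to 2.35. Of the 36 named genes 35 could be fitted. Over these and all settings, 477 values kept their direction and, except for Rprm, which carries no test, their side of the threshold. A further 31 came to pass it, 11 no longer did, all of Ephb6, and 14 changed sign. The remaining 3, all of Rprm, moved in size. No named gene changed sign under quantile or median-ratio scaling.

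A replicate block could use only numbers 1 and 2, which the groups share as numbers alone. The deviations of same-numbered libraries correlated at -0.05 and 0.06 over 7319 genes. Under the replicate block, 0 genes passed (987 at an unadjusted p under 0.05), and Ccng1 was -0.24, Zmat3 0.22 and Ppm1d 0.10.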
